A study of Mus musculus with 6 samples.

Results

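The 10 genes described here mark neural progenitors and neurons and were followed in mouse embryonic stem cells that lack Max and in wild-type cells. They were the transcription factor genes Pax6 and Sox11, the intermediate filament genes Nes, Nefl, Nefm and Prph, the microtubule genes Tubb3, Map2 and Stmn2, and the RNA-binding protein gene Elavl3. They were taken by symbol, and these 10 of 55536 Ensembl genes per file were each listed once. All 10 were among the 14661 genes tested, each averaging 1 FPKM or more in both groups, so the filter on low values fixed the direction of none of them. RNA came from 3 libraries of Max-/- embryonic stem cells (Max-KO) and 3 of wild type embryonic stem cells (WT), all of strain C57BL/6. MAX is the partner that MYC proteins need to bind DNA and also sits in a repressor complex of the Polycomb group, PRC1.6. The labels give no clone, culture, passage or deletion design, so the p-values speak of the spread among these 6 libraries alone, which may be technical.

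In the developing nervous system, dividing progenitors carry PAX and SOX factors and the filament protein nestin. As they become neurons, nestin gives way to neurofilaments and peripherin, and neuron-specific tubulin, stathmin and microtubule-associated proteins build axons and dendrites. HuC, the protein of Elavl3, binds AU-rich messenger RNAs in neurons. Cultured embryonic stem cells are not neurons, and the cells here had high levels of the stem cell genes Pou5f1, Sox2 and Nanog in both groups, with Pou5f1 at 962 to 1030 FPKM in Max-KO and 864 to 943 FPKM in WT. Levels are FPKM, fragments per kilobase of transcript per 1000000 mapped fragments. Summed FPKM was 651597 ± 6602 in Max-KO and 755907 ± 16346 in WT (SD, n = 3 each), and the spacing of low values gave an estimated 20000000 to 28000000 fragments in the Max-KO libraries and 21800000 to 25800000 in the WT libraries. A level of 1 FPKM in a transcript of 2 kb then stood for about 35 to 48.7 fragments. Max itself was listed at 35.8, 39.6 and 43.4 FPKM in the Max-KO libraries and at 41.6, 50.2 and 42.3 FPKM in the WT libraries; the groups overlapped, and one value for the whole gene cannot reveal a lost exon, so it is no check of the genotype labels.

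Most of the 10 genes were lower without Max. Pax6, Sox11, Nes, Prph, Tubb3, Map2, Stmn2 and Elavl3 fell in the Max-KO libraries, Nefm rose, and Nefl did not pass the test. Prph changed most, with a mean FPKM 14.8-fold higher in WT, while the other 7 genes that fell were 1.41-fold to 3.18-fold higher in WT. Of the 10 genes 9 were called, against 66.2% of all genes tested (limma on log2(FPKM + 1), adjusted p under 0.05): 8 were called lower, against 23.2%, and 1 higher, against 43.0%. The median log2 difference, Max-KO minus WT, was −0.95 over the 10 genes and 0.21 over all genes tested. The 8 genes called lower had every Max-KO library below every WT library, as did 25.7% of all genes tested, and Nefm had every Max-KO library above every WT library, as did 46.3%; in either direction, 72.0% of all genes tested did not overlap. All log2 differences are on the log2(FPKM + 1) scale, where the change of a low gene comes out too small. In bulk RNA such as this, fewer cells of a type and less RNA per cell cannot be told apart.

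**Figure D1:**
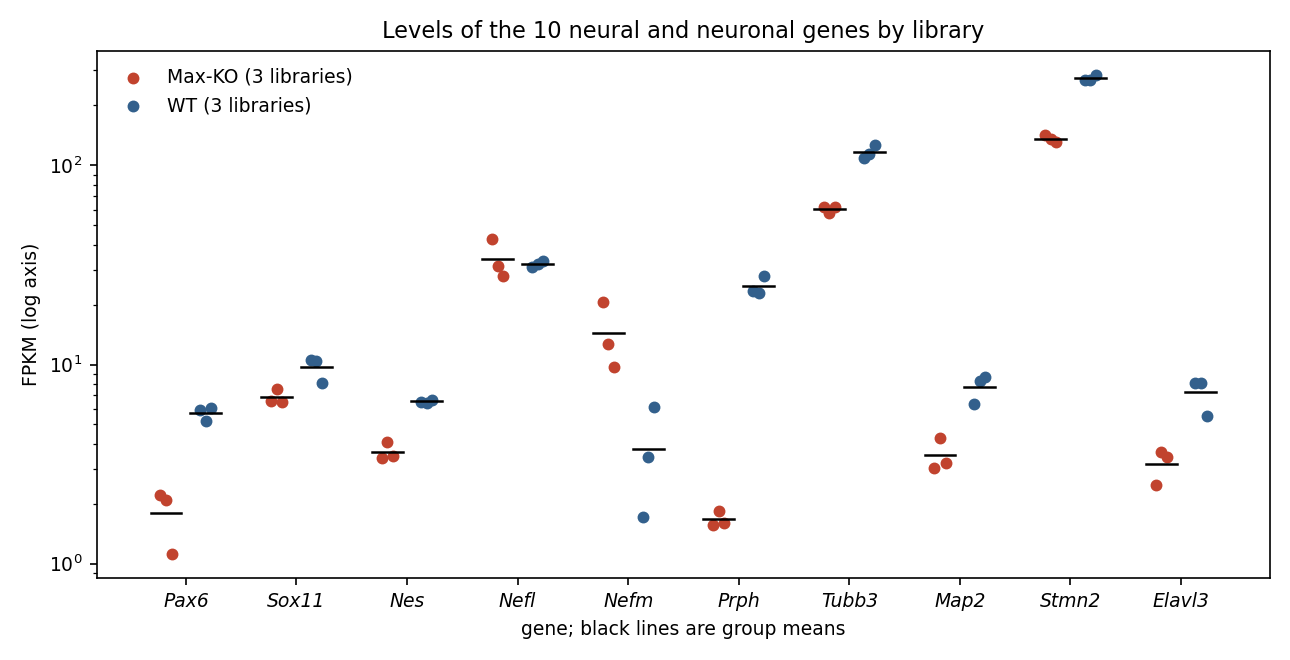
FPKM of each of the 10 genes (log axis) in the 3 Max-KO libraries (left of each pair) and the 3 WT libraries (right of each pair), with black lines at the group means. The Max-KO points lie below the WT points for 8 genes, above them for Nefm, and overlap them for Nefl, and the widest gap is that of Prph, at a mean of 1.67 FPKM in Max-KO and 24.7 FPKM in WT.

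The transcription factor genes were both lower. Pax6, a paired-box and homeobox factor of eye and forebrain progenitors (ENSMUSG00000027168; GRCm38 chromosome 2, 105668900 to 105697364, plus strand), was at 2.20, 2.09 and 1.12 FPKM in the Max-KO libraries and at 5.94, 5.23 and 6.05 FPKM in the WT libraries. The 3 Max-KO libraries were all below the WT libraries, and Max-KO replicate 3 was lowest. Its mean was 1.80 ± 0.594 FPKM in Max-KO and 5.74 ± 0.445 FPKM in WT (SD, n = 3 each), a log2 difference of −1.29 ± 0.17 (SE; limma, adjusted p = 5.76e-04). Sox11, a SOXC factor that acts in newly formed neurons (ENSMUSG00000063632; chromosome 12, 27334264 to 27342574, minus strand), was at 6.54, 7.54 and 6.50 FPKM in Max-KO and at 10.5, 10.4 and 8.10 FPKM in WT. The groups did not overlap, but WT replicate 3 came close to Max-KO replicate 2. The log2 difference of −0.44 ± 0.12 (SE; limma, adjusted p = 0.0150) was the smallest of the 8 falls and the only one of them whose call depended on the processing. It was lost after rescaling to TPM (−0.24, adjusted p = 0.152), without WT replicate 1 (−0.38, adjusted p = 0.0540) and without WT replicate 2 (−0.38, adjusted p = 0.0521).

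Within the SOXC family the share of Sox11 showed no difference past the spread. Sox12 fell, and averaged 2.48 ± 0.204 FPKM in Max-KO and 11.04 ± 0.638 FPKM in WT, while Sox4 averaged 15.2 ± 0.528 FPKM in Max-KO and 12.7 ± 1.42 FPKM in WT (SD, n = 3 each). The small difference of Sox4, 0.25 on the log2 scale (limma, adjusted p = 0.0448), was 0.01 with median-ratio scaling and −0.003 with quantile normalization (adjusted p = 0.914 and 0.980), so it has no settled direction. Its share of the family's summed FPKM was 62.0 ± 0.750% in Max-KO and 37.9 ± 2.29% in WT, beside the lower levels of Sox12 and Sox11. Sox11 made up 27.9 ± 1.261% in Max-KO and 28.9 ± 2.68% in WT (exact permutation test of the share, 2-sided p = 0.6, where 0.1 is the smallest p that 3 against 3 libraries allow).

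The intermediate filament genes split. These encode proteins that assemble into ropelike filaments: nestin in progenitors, the light and medium neurofilament chains in axons, and peripherin chiefly in peripheral neurons. Nes (ENSMUSG00000004891; chromosome 3, 87971078 to 87980451, plus strand) was at 3.40, 4.07 and 3.46 FPKM in the Max-KO libraries and at 6.51, 6.43 and 6.65 FPKM in the WT libraries, which lay close together. Its log2 difference was −0.70 ± 0.10 (SE; limma, adjusted p = 6.41e-04). Prph (ENSMUSG00000023484; chromosome 15, 99055174 to 99058978, plus strand) was at 1.57, 1.84 and 1.60 FPKM in Max-KO and at 23.3, 22.9 and 27.9 FPKM in WT. No library came near the other group. Its log2 difference was −3.26 ± 0.11 (SE; limma, adjusted p = 2.35e-06), and its level stood at the 11.96th percentile of genes tested in Max-KO and at the 72.8th in WT.

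The neurofilament genes did not follow Prph. Nefm (ENSMUSG00000022054; chromosome 14, 68082590 to 68124846, minus strand) was at 20.7, 12.7 and 9.74 FPKM in the Max-KO libraries and at 1.71, 3.45 and 6.09 FPKM in the WT libraries. Every Max-KO library was higher than every WT library, but the spread was the widest among the 10 genes, with a coefficient of variation of 39.4% in Max-KO and 58.8% in WT. The log2 difference was 1.74 ± 0.41 (SE; 95% interval 0.74 to 2.74; limma, adjusted p = 9.99e-03). Nefl (ENSMUSG00000022055; chromosome 14, 68083863 to 68089095, plus strand) was at 42.6, 31.2 and 27.9 FPKM in Max-KO and at 30.9, 31.8 and 33.0 FPKM in WT, with overlapping groups. It was not called, at 0.06 ± 0.15 on the log2 scale (SE; 95% interval −0.28 to 0.41; limma, adjusted p = 0.724). Max-KO replicate 1 held the highest level of both genes, and without it the difference of Nefl was −0.11 and that of Nefm 1.46.

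Nefl and Nefm lie on opposite strands of the same stretch of chromosome 14. A long Nefm transcript in the annotation has an exon across 1108 bases of the first exon of Nefl (68083863 to 68084970), out of 3380 exon bases of Nefl and 5782 of Nefm. No source used here says whether the libraries keep strand. Reads of these shared bases therefore cannot be told apart, and part of either value could belong to the other gene. The ratio of Nefm to Nefl FPKM was 0.486, 0.407 and 0.350 in the Max-KO libraries and 0.0553, 0.108 and 0.184 in the WT libraries, without overlap.

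Seen with Nefh, the heavy neurofilament chain, and Ina, alpha-internexin, the neuronal filament genes had another make-up in Max-KO. Prph made up 2.03 ± 0.362% of the summed FPKM of these 5 genes in Max-KO and 23.0 ± 1.06% in WT (SD, n = 3 each). Nefm made up 16.8 ± 4.05% in Max-KO and 3.42 ± 1.78% in WT, and Nefl 40.3 ± 3.09% in Max-KO and 29.9 ± 1.25% in WT. The share of Ina was 17.1 ± 2.62% in Max-KO and 29.7 ± 0.468% in WT, and that of Nefh 23.7 ± 4.16% in Max-KO and 13.9 ± 0.792% in WT. Each of these 5 shares differed without overlap between groups, at the smallest p the design allows (exact permutation test, 2-sided p = 0.1). Shares of 1 family move against each other, so these 5 are not separate results. The share of Nefl was higher in Max-KO though its level was not called. The level of Nefh was called higher, at 0.37 on the log2 scale (limma, adjusted p = 0.00329). That call was lost with median-ratio scaling and with quantile normalization (limma, adjusted p = 0.189 and 0.151). The summed FPKM of the 5 genes was 83.5 ± 12.5 in Max-KO and 107.1 ± 8.04 in WT.

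The microtubule genes all fell, by similar amounts. Tubb3, the beta tubulin isotype of neurons (ENSMUSG00000062380; chromosome 8, 123411424 to 123422015, plus strand), was at 62.0, 57.6 and 61.8 FPKM in the Max-KO libraries and at 108.8, 114.7 and 127.2 FPKM in the WT libraries. The groups were far apart, and the log2 difference was −0.94 ± 0.07 (SE; limma, adjusted p = 4.10e-05). Stmn2, a stathmin that binds tubulin in growing axons (ENSMUSG00000027500; chromosome 3, 8509360 to 8561606, plus strand), was at 141.6, 135.5 and 131.3 FPKM in Max-KO and at 268.7, 268.0 and 285.4 FPKM in WT. It had the narrowest spread of the 10 genes in Max-KO, with a coefficient of variation of 3.79%, and its log2 difference was −1.004 ± 0.05 (SE; limma, adjusted p = 1.01e-05). Map2, which binds microtubules in dendrites (ENSMUSG00000015222; chromosome 1, 66175273 to 66442583, plus strand), was at 3.04, 4.28 and 3.21 FPKM in Max-KO and at 6.32, 8.26 and 8.63 FPKM in WT. Every Max-KO library was lower than every WT library, and the log2 difference was −0.95 ± 0.15 (SE; limma, adjusted p = 1.31e-03).

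Stmn2 and Tubb3 also made up less of their families in Max-KO. Stmn1, the general stathmin, averaged 360 ± 8.56 FPKM in Max-KO and 349 ± 31.1 FPKM in WT (SD, n = 3 each), and was not called (log2 difference 0.05; limma, adjusted p = 0.567). Its difference was −0.21 with median-ratio scaling (adjusted p = 0.0782), and it was called higher with TPM (0.28, adjusted p = 0.00502) and with quantile normalization (0.35, adjusted p = 0.0021). Stmn2 made up 27.2 ± 0.342% of stathmin FPKM in Max-KO and 43.7 ± 1.29% in WT. Tubb3 made up 4.04 ± 0.0746% of beta tubulin FPKM in Max-KO and 6.31 ± 0.141% in WT, and Tubb5, the most abundant beta tubulin here, 45.1 ± 0.575% in Max-KO and 51.9 ± 0.237% in WT. The level of Tubb5 fell by 0.51 on the log2 scale (limma, adjusted p = 5.63e-04), but by quantile normalization the difference was 0.07 and not called (adjusted p = 0.157). Tubb2b, a beta tubulin of the developing brain, made up 17.96 ± 0.963% in Max-KO and 11.04 ± 0.310% in WT. These shares of Stmn2, Tubb3, Tubb5 and Tubb2b did not overlap between groups, at the smallest p the design allows (exact permutation test, 2-sided p = 0.1). Shares within a family are tied to each other, so those of Tubb3, Tubb5 and Tubb2b are not separate results. Tubulin genes share sequence, so the split of reads among them is uncertain.

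**Figure D2:**
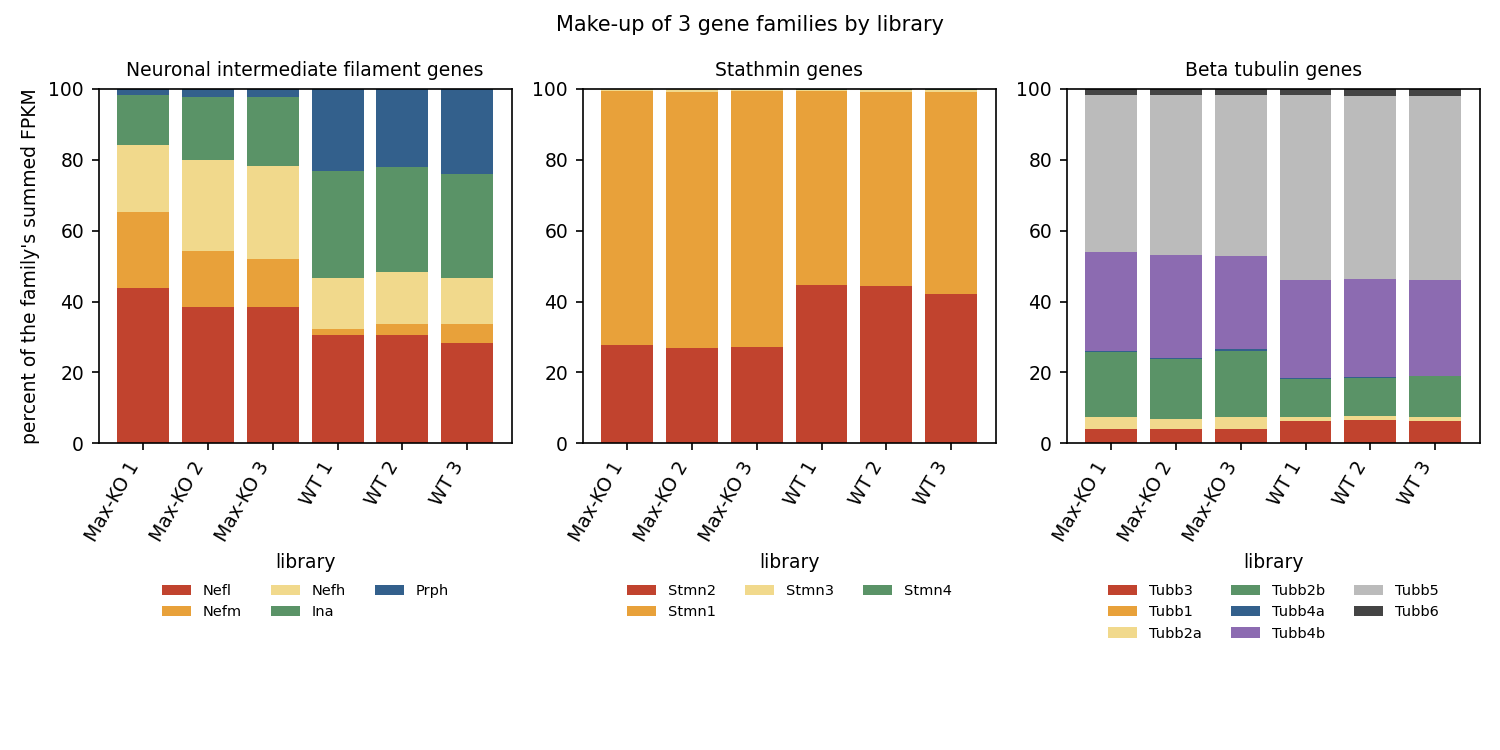
Share of each gene in the summed FPKM of its family (percent), as stacked bars for the 3 Max-KO libraries (left) and the 3 WT libraries (right), for neuronal intermediate filament, stathmin and beta tubulin genes. Prph takes 2.03% of the first family in Max-KO and 23.0% in WT, and Stmn2 takes 27.2% of the second in Max-KO and 43.7% in WT.

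Elavl3, the gene of the neuronal RNA-binding protein HuC (ENSMUSG00000003410; chromosome 9, 22015005 to 22052023, minus strand), was at 2.47, 3.65 and 3.43 FPKM in the Max-KO libraries and at 8.11, 8.12 and 5.53 FPKM in the WT libraries. WT replicate 3 was the lowest of its group and still above the Max-KO libraries. The log2 difference was −0.97 ± 0.18 (SE; limma, adjusted p = 2.30e-03). Elavl1, the family member made in most cells, was at 59.1 to 62.6 FPKM in Max-KO and 64.1 to 70.5 FPKM in WT and missed the threshold (log2 difference −0.13; limma, adjusted p = 0.0696), but was called lower with median-ratio scaling (−0.39, adjusted p = 0.00211) and was at 0.09 with TPM (adjusted p = 0.1498). Elavl2, also mainly neuronal, averaged 16.6 ± 1.93 FPKM in Max-KO and 10.9 ± 2.40 FPKM in WT and rose (log2 difference 0.58 ± 0.16 SE; limma, adjusted p = 0.0171), a call lost with median-ratio scaling and with quantile normalization (adjusted p = 0.0835 and 0.0981).

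Set in order of mean FPKM, the 10 genes shared their top 3 places in both groups and differed below them. Stmn2, Tubb3 and Nefl came first in Max-KO, at 136 ± 5.16, 60.5 ± 2.48 and 33.9 ± 7.73 FPKM, and also in WT, at 274 ± 9.86, 116.9 ± 9.36 and 31.9 ± 1.05 FPKM (SD, n = 3 each). Prph had rank 10 in Max-KO and rank 4 in WT, whereas Nefm had rank 4 in Max-KO and rank 10 in WT. The libraries of neighbouring genes overlapped for Nes and Map2, Map2 and Elavl3, and Pax6 and Prph in Max-KO, and for Sox11 and Map2, Map2 and Elavl3, Elavl3 and Nes, and Pax6 and Nefm in WT, so these orders are not settled by the spread. Together the 10 genes summed to 286, 260.5 and 250.04 FPKM in the Max-KO libraries and to 471, 479 and 515 FPKM in the WT libraries, and Stmn2 and Tubb3 made up 71.2% to 77.2% of that sum in Max-KO and 79.8% to 80.2% in WT.

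The calls of the 10 genes changed little with the scaling between libraries, while the split of calls over all genes changed much. The median of all genes tested was 0.21 as deposited, with 64.9% of all calls higher in Max-KO. With median-ratio scaling it was −0.03 (47.0% higher), with quantile normalization −0.02 (46.7% higher) and with TPM 0.44 (78.6% higher). Of the 10 genes 8 were called lower in each of these but TPM, where Sox11 was lost and 7 remained, and Nefm was called higher in all 4. Over all genes tested, 3403 of 14661 were called lower and 6300 higher as deposited, and 4987 and 4424 of 14558 with median-ratio scaling. With quantile normalization 4831 of 14661 were lower and 4225 higher, and with TPM 2335 of 15818 were lower and 8552 higher. The median of the 10 genes was −1.17 with median-ratio scaling, −0.98 with quantile normalization and −0.74 with TPM. The sign of the uncalled difference of Nefl changed with the scaling: −0.19 with median-ratio scaling, −0.03 with quantile normalization.

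**Figure D3:**
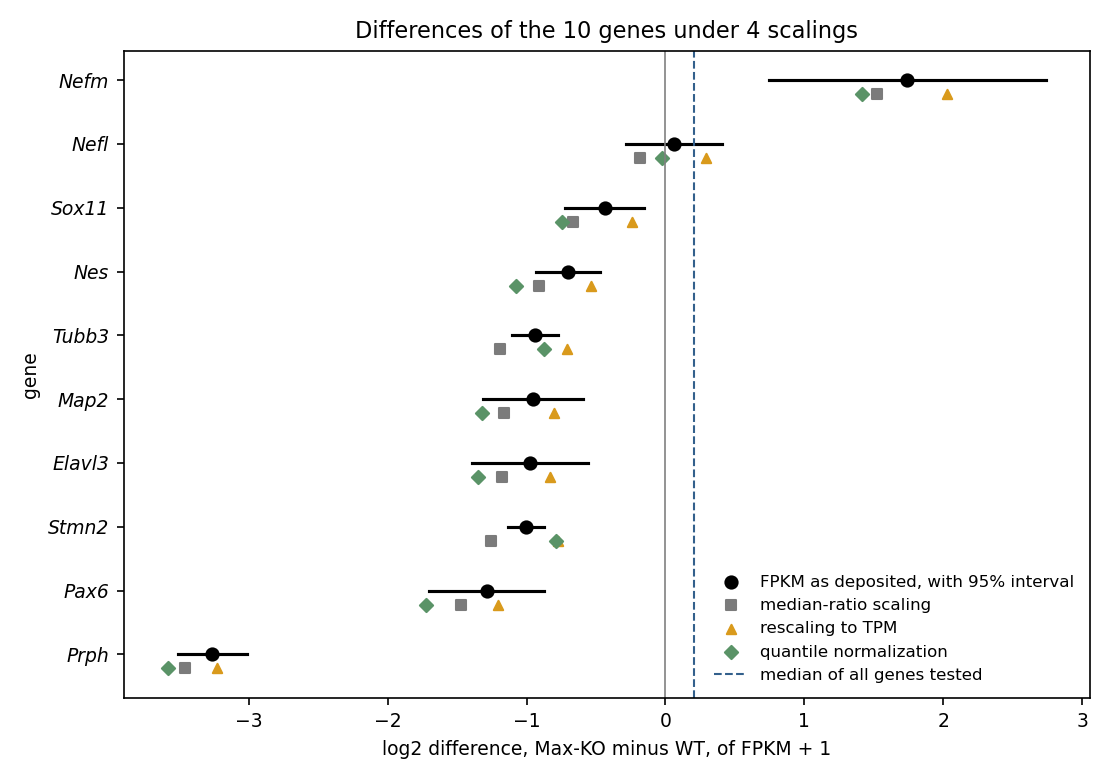
Log2 differences, Max-KO minus WT, of log2(FPKM + 1) for the 10 genes (x axis), with black points and 95% intervals for FPKM as deposited and coloured marks for 3 other scalings; the dashed line is the median of all genes tested, 0.21. Prph lies farthest left, at −3.26, and Nefm is the single gene whose marks all lie right of the dashed line by more than 1.

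The upstream sequences of Prph, Pax6 and Nes are shown because these genes had the largest fall, the next largest fall and the tightest WT values, and because MAX, E2F6 and MGA bind short DNA words as parts of the MYC and PRC1.6 complexes. The RefSeq promoter table of GRCm38.p6 held 8 windows of 300 bases for 7 of the 10 genes, Map2, Pax6 (2 windows), Nes, Tubb3, Elavl3, Sox11 and Prph. The word CACGTG, the E-box bound by MYC and MAX, was in 0 of the 8 windows and in 7.15% of all 32851 windows. The word TCCCGC, an E2F-type site searched on both strands, was in 3 of the 8, those of Map2, Nes and Pax6 (1 of its 2 windows), and in 19.98% of all windows. The T-box word AGGTGTGA, searched on both strands, was in 0 of the 8 and in 1.28% of all windows. No found word overlapped another. A match is a description of letters and not of binding, and the absence of a match says only that these letters are not in this window. The 250 bases before the transcription start follow, 5′ to 3′ on the gene's strand, from chr15:99054924-99055173 for Prph, chr2:105668646-105668895 for Pax6 and chr3:87970843-87971092 for Nes, all on the plus strand. Capitals mark TCCCGC or its reverse complement.
Prph: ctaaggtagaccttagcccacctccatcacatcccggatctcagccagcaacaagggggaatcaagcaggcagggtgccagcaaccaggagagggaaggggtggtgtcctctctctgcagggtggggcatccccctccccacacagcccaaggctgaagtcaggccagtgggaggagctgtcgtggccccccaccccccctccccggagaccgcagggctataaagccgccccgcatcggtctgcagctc
Pax6: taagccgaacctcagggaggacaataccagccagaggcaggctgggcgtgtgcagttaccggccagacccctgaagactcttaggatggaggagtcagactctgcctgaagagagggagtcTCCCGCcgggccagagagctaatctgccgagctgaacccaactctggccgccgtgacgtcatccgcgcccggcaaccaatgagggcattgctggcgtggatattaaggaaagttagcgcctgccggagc
Nes: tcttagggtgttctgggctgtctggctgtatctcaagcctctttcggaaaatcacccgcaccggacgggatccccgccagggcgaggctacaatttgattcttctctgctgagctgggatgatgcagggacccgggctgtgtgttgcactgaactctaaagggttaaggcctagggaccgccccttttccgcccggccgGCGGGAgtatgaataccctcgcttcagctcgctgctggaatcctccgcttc
The marked word begins 129 bases before the start of Pax6 and 51 bases before that of Nes, and the Prph stretch has none. The full windows had a GC content of 64.7% for Prph, 58.7% for this Pax6 window and 58.7% for Nes, against a median of 52.7% over all windows, and held 10, 18 and 18 CpG pairs in that order, against a median of 7.

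The wider families around the 10 genes went both ways. A gene averaging under 1 FPKM in 1 group entered the test through the other group alone, which fixed its direction; such genes are named as entering through that group. Counts below from FPKM as deposited read against the shares of all genes tested that were called higher, 43.0%, and lower, 23.2%. Those under another scaling read against the counts over all genes given above for that scaling. Among 13 other intermediate filament genes, 12 were tested, of which 5 rose, Krt7 entering through Max-KO alone, and 6 fell (1 and 6 with median-ratio scaling, 0 and 6 with quantile normalization), with a median log2 difference of −0.19 (0.03 after rescaling to TPM). Des, the muscle filament desmin, averaged 1.18 ± 0.384 FPKM in Max-KO and 4.22 ± 0.221 FPKM in WT, and Ina averaged 14.1 ± 0.230 FPKM in Max-KO and 31.8 ± 1.89 FPKM in WT (SD, n = 3 each). Lmnb2, a lamin of the nuclear envelope, fell with a log2 difference of −0.98, while Synm, synemin, rose by 0.63, a call lost under quantile normalization (limma, adjusted p = 0.218).

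Of 14 tubulin genes tested 8 fell and 5 rose. Tuba1b, a main alpha tubulin of dividing cells, averaged 746 ± 32.4 FPKM in Max-KO and 1591 ± 178 FPKM in WT, and Tuba1c and Tuba4a had log2 differences of −0.77 and −0.75. Tuba3a, an alpha tubulin of the testis, rose instead, with 50.7 ± 2.28 FPKM in Max-KO and 6.57 ± 0.715 FPKM in WT (SD, n = 3 each; log2 difference 2.77 ± 0.09 SE; limma, adjusted p = 1.89e-06). The list's median was −0.33 (−0.58 with median-ratio scaling, −0.10 with TPM and with quantile normalization), and with TPM 5 rose and 6 fell. Tuba3b entered the test through Max-KO alone.

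Among 22 tested microtubule regulators of neurons 7 rose and 7 fell (4 and 9 under median-ratio scaling, 9 and 7 with TPM, 5 and 10 with quantile normalization), with a median of 0.04, Stmn4 and Kif1a entering through WT alone. Mapt, the axonal protein tau, had the opposite direction to Map2, with 57.9 ± 6.80 FPKM in Max-KO and 13.8 ± 1.56 FPKM in WT (SD, n = 3 each; log2 difference 1.99 ± 0.11 SE; limma, adjusted p = 1.21e-05). Map1a rose as well (log2 difference 1.10), and Gap43, a protein of growing axons, rose by 0.70, a call lost with median-ratio scaling and with quantile normalization (limma, adjusted p = 0.0540 and 0.0812). Crmp1, a mediator of axon guidance signals, averaged 16.3 ± 1.59 FPKM in Max-KO and 64.4 ± 0.588 FPKM in WT. Dclk1 had 27.6 FPKM in Max-KO replicate 2 and at most 0.830 FPKM in the other libraries, and was not called, having entered through Max-KO alone. Dcx, the doublecortin gene of migrating neurons, was at most 0.110 FPKM in any library.

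Other progenitor genes were as divided as the families of the cytoskeleton. Of 27 listed SOX, PAX, ZIC and other neural progenitor genes 13 were tested, 6 higher and 6 lower, with a median of 0.18 (−0.04 with median-ratio scaling, −0.16 with quantile normalization). Meis1 and Meis2, homeobox factors, averaged 8.84 ± 0.452 and 8.77 ± 2.15 FPKM in Max-KO and 0.857 ± 0.216 and 0.553 ± 0.463 FPKM in WT (SD, n = 3 each); both passed the filter through Max-KO alone, which fixed their direction. Sox3 rose (log2 difference 1.48), and Sox12 fell (−1.79). Sox1, the earliest neural plate marker among them, was at 0.460 to 0.750 FPKM in Max-KO and 0.160 to 0.180 FPKM in WT, under the filter.

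Of 29 proneural and neuronal transcription factor genes only 10 were tested, and 18 were under 1 FPKM in every library, Neurod2 at 0 in all 6. Among the 10, 5 fell and 2 rose, but 5 of the 10 entered through 1 group alone: Neurog1 and Insm1, which fell, through WT, and Ebf1 and Myt1l, which rose, and Neurog3, not called, through Max-KO. Neurod1, a basic helix-loop-helix factor of neurons, averaged 1.04 ± 0.240 FPKM in Max-KO and 3.98 ± 0.649 FPKM in WT, and Pou3f1 averaged 1.10 ± 0.186 FPKM in Max-KO and 2.98 ± 0.240 FPKM in WT (SD, n = 3 each). The log2 difference was −0.88 for Insm1 and 1.54 for Ebf1. Under a filter on the mean of all 6 libraries 3 fell and 1 rose.

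The neuronal RNA-binding genes and the synaptic genes had no common direction. Of 13 ELAV, NOVA, RBFOX, CELF and related genes tested 5 rose and 3 fell (4 and 6 of 15 with median-ratio scaling, 3 and 5 with quantile normalization), with a median of 0.02. Rbfox1, a splicing factor of neurons and muscle, had the largest change, at 24.4, 29.4 and 37.2 FPKM in the Max-KO libraries and 1.87, 1.35 and 0.790 FPKM in the WT libraries (log2 difference 3.75 ± 0.21 SE; limma, adjusted p = 1.25e-05). Cpeb3 rose (0.90), and Srrm4, a splicing factor of neuronal microexons, rose by 0.86, a call lost under quantile normalization (limma, adjusted p = 0.169). Srrm4 entered through Max-KO alone and Nova1, which fell, through WT alone. Ptbp1, a repressor of neuronal splicing in other cells, fell, with 198 ± 3.37 FPKM in Max-KO and 293 ± 12.9 FPKM in WT. Of 33 synaptic and vesicle genes 20 were tested, of which 6 rose and 7 fell (5 and 9 under median-ratio scaling, 6 and 3 with TPM, 2 and 10 with quantile normalization). Rab3a, a small GTPase of synaptic vesicles, fell (log2 difference −1.21), as did Nlgn2 (−0.67) and Syt4 (−0.90, entering through WT alone), and Chga, the vesicle protein chromogranin A, rose to 34.4 ± 2.77 FPKM in Max-KO, against 12.8 ± 0.689 FPKM in WT. Slc32a1, which rose, entered through Max-KO alone.

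REST is the repressor that keeps neuronal genes silent in other cells. Rest fell slightly, at 61.0, 59.9 and 66.7 FPKM in the Max-KO libraries and 79.5, 81.6 and 71.4 FPKM in the WT libraries (log2 difference −0.30 ± 0.07 SE; limma, adjusted p = 7.71e-03), a call lost with TPM (−0.08, adjusted p = 0.399). Of 14 tested genes of REST and its corepressors 7 rose and 3 fell, but 2 rose and 7 fell under median-ratio scaling, so the list has no settled direction. Hdac2 had a log2 difference of 0.63, Rcor3 one of 0.54 and Rcor2 one of −0.69, and the call of Rcor3 was lost with median-ratio scaling and with quantile normalization (limma, adjusted p = 0.0501 and 0.470).

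Notch signalling between neighbouring cells sets the pace of neuron formation, and the ligand genes Dll1, Dll3, Jag1 and Jag2 and the receptor genes Notch1 and Notch3 fell, Dll1 and Dll3 having entered the test through WT alone, like the target gene Hey1. The receptor genes Notch2 and Notch4 were not called (log2 differences 0.08 and −0.30; limma, adjusted p = 0.431 and 0.156). In the Notch list 9 of 18 tested genes fell and 7 rose (10 fell with median-ratio scaling, 11 with quantile normalization), with a median of −0.41. Dll1, a ligand, averaged 0.280 ± 0.157 FPKM in Max-KO and 2.97 ± 0.268 FPKM in WT, Lfng, which modifies the receptors, 1.36 ± 0.215 FPKM in Max-KO and 7.66 ± 1.45 FPKM in WT, and Hes6 4.82 ± 0.870 FPKM in Max-KO and 15.9 ± 0.869 FPKM in WT (SD, n = 3 each). Of the 7 that rose 4 were Id genes, inhibitors of basic helix-loop-helix factors better known as targets of BMP signals. The other 3 act inside the Notch pathway itself: Hes1, a target gene, averaged 30.6 ± 3.38 FPKM in Max-KO and 16.5 ± 2.06 FPKM in WT, Rbpj, its DNA-binding factor, 127 ± 12.3 FPKM in Max-KO and 75.0 ± 1.57 FPKM in WT, and Maml1, a coactivator, had a log2 difference of 0.86. Id1 was at 310.4, 274.5 and 225 FPKM in the Max-KO libraries and at 36.8, 35.2 and 38.4 FPKM in the WT libraries (log2 difference 2.83 ± 0.11 SE; limma, adjusted p = 3.95e-06).

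**Figure D4:**
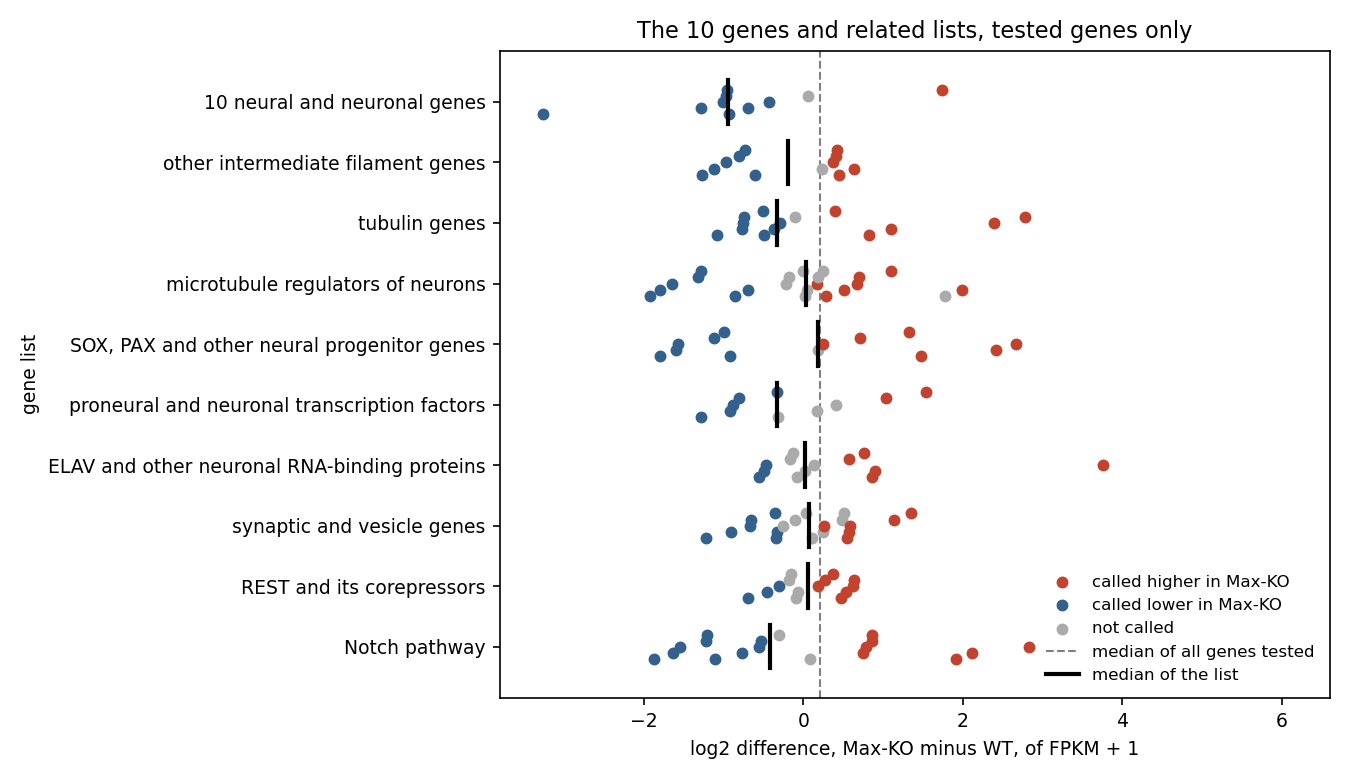
Log2 differences, Max-KO minus WT, of log2(FPKM + 1) for the tested genes of each list (x axis; 1 point a gene, coloured by call), with the median of each list in black and that of all genes tested dashed. The 10 genes at the top have a median of −0.95, while the other lists have medians between −0.41 and 0.18 with points on both sides of 0.

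The profiles nearest to the extremes among the 10 genes were sought over the 6 libraries, after centring each gene's log2(FPKM + 1). For Prph they were Phgdh (root-mean-square distance 0.11 on the log2 scale), Phlda2 (0.13) and Srm (0.13). For Nefm they were Ebf1 (0.27), Cnppd1 (0.28) and Nrcam (0.28), and Nefm and its 3 neighbours each had their highest level in Max-KO replicate 1 and, among WT libraries, in WT replicate 3. The neighbours were picked for closeness over these same 6 libraries, a choice that itself favours a shared order of replicates. Ebf1 entered the test through Max-KO alone. With 2 groups of 3 libraries, the distance mostly compares the size of the group difference.

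Markers of other cell types moved in the same libraries. Germ cell markers summed to 1266 to 1317 FPKM in Max-KO and 29.5 to 36.8 FPKM in WT, with 10 of 10 called higher, among them Dazl, Taf7l, Nxf2 and Mov10l1; Taf7l, Nxf2, Mov10l1 and Tex101 entered the test through Max-KO alone. Primitive endoderm markers summed to 79.3 to 93.0 FPKM in Max-KO and 32.1 to 36.8 FPKM in WT, with 6 of 6 tested genes higher (3 under quantile normalization), Col4a1, Pdgfra, Gata4 and Sox17 among them, the last 3 entering through Max-KO alone. Most of that sum was Lama1 and Col4a1, averaging 46.0 and 33.5 FPKM in Max-KO and 26.9 and 5.08 FPKM in WT. Gata4 and Sox17 averaged 1.35 and 1.27 FPKM in Max-KO, and Gata6, Foxa2, Sox7 and Cubn were under the filter. The calls of Gata4 and Sox17 were lost with quantile normalization (limma, adjusted p = 0.168 and 0.368). That of Sox17 was also lost without Max-KO replicate 1 or 2 and without WT replicate 1 or 2. Neural crest markers summed to 107.1 to 153 FPKM in Max-KO and 50.4 to 59.8 FPKM in WT, most of it Ngfr and Foxd3, which were called higher with Tfap2a, entering through Max-KO alone, while Tfap2b was at 0 and Sox10 and Ednrb were under 1 FPKM in all 6 libraries. Trophoblast markers summed to 35.7 to 45.3 FPKM in Max-KO and 32.0 to 33.5 FPKM in WT, with 5 of 6 tested higher, Gata3, Hand1, Elf5 and Eomes among them (3 higher and 1 lower under quantile normalization), with Gata3, Elf5 and Krt7 entering through Max-KO alone and Prl3d1 at 0. The largest part of both sums was Tfap2c, which went the other way, with every Max-KO library below every WT library. It averaged 22.5 ± 3.79 FPKM in Max-KO and 27.7 ± 0.613 FPKM in WT and was not called (log2 difference −0.30; limma, adjusted p = 0.0536). The call of Eomes was lost under quantile normalization (limma, adjusted p = 0.396). Glial markers summed to 38.4 to 43.1 FPKM in Max-KO and 26.5 to 28.9 FPKM in WT, with 4 of 5 tested higher, Mbp, Aldh1l1 and Cnp among them (2 with median-ratio scaling, 1 with quantile normalization), S100b at 0 and Aqp4 at 0.01 FPKM or less. Cnp lost its call with median-ratio scaling and with quantile normalization (limma, adjusted p = 0.745 and 0.595). Aldh1l1 lost its call with quantile normalization (limma, adjusted p = 0.381). Fibroblast markers, which feeder cells would carry, summed to 13.8 to 16.9 FPKM in Max-KO and 10.5 to 12.4 FPKM in WT, with 3 of 6 tested higher, Pdgfra, Col6a1 and Col1a1 (1 higher and 1 lower under quantile normalization), with Pdgfra, Col6a1 and the uncalled S100a4 entering through Max-KO alone and Fap at 0. Under quantile normalization the calls of Col6a1 and Col1a1 were lost (limma, adjusted p = 0.194 and 0.632). Mesoderm markers summed to 3.29 to 3.89 FPKM in Max-KO and 2.76 to 3.34 FPKM in WT, with Kdr lower, entering through WT alone, and the other 9 not tested. Of 8 embryonic stem cell markers 5 were higher and Utf1 lower. The part of these markers in the differences of the 10 genes was not tested.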

How the data were processed

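RNA was measured in 6 libraries, 3 Max-KO and 3 WT, grouped by their titles. The authors deposited FPKM, with 1 value per gene and library. Per the submitters' processing notes, FastQC, HISAT2 2.1.0, RSEM and DESeq 1.26.0 were named, with build GRCm38.p6 and no role or order given. Each file listed 56689 identifiers, of which 1153 were assembled loci without a gene name and were left out of the tests. Symbols and coordinates came from GENCODE M21 (GRCm38), which held 55450 of 55536 Ensembl identifiers.

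A gene was tested where its mean reached 1 FPKM in either group, with limma 3.58.1 in R 4.3.3 on log2(FPKM + 1), with trend and robust moderation, 2-sided, genotype as the only factor, and Benjamini-Hochberg adjustment over all 14661 genes. The members and gene lists were chosen with earlier results of these data known. No adjustment over a list alone was made. Named genes were the 10 members and, from each list, up to 4 called genes with the largest differences, 1 of them in the minority direction; some of these are not reported here, and others named with their values were chosen after these were seen. Depth was estimated by searching 10000000 to 35000000 fragments for the step that brought low values of 1-transcript genes (350 to 900 bases) closest to whole multiples; 86.0% to 89.7% of those values then lay within 0.15 of one. FPKM allow no counting interval. The fit was tested on simulated data. Shares within a family were compared by an exact permutation test (SciPy 1.17.1) in Python 3.11.15. Alternatives were another pseudocount, other filters, limma without trend or robust moderation, and 3 scalings. Further ones were protein-coding genes alone, a replicate block, and each library left out. Proteins were not analysed here.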

Additional observations from a re-analysis of the deposited data

Results flagged for a closer look

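Assembled loci without a gene name, which no comparison above used, held a larger part of the Max-KO libraries than of the WT libraries. They made up 2.15 ± 0.166% of summed FPKM in Max-KO and 0.985 ± 0.137% in WT (SD, n = 3 each). The files give them no name or position, so their relation to the 10 genes was not tested. Groups of 3 libraries are too small for a test of single outlying libraries.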

How the results depend on the processing

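Each of the 10 genes was refitted under 15 alternatives. Stmn2, Nes, Tubb3, Pax6, Prph, Elavl3 and Map2 kept direction and call under all 15, with Prph between −3.81 and −3.17 and Stmn2 between −1.26 and −0.78. Sox11 lost its call after rescaling to TPM (−0.24, adjusted p = 0.152), and leaving out 1 library at a time gave −0.55 to −0.38. The uncalled difference of Nefl turned to −0.19 with median-ratio scaling and −0.026 with quantile normalization, and ranged from −0.11 to 0.19 with 1 library left out, the first without Max-KO replicate 1. Nefm ranged from 1.39 to 2.08 with 1 library left out and stayed called. The replicate numbers did not pair the samples: deviations from the group means of same-numbered libraries correlated at −0.0006, 0.016 and 0.086. With the replicate block Nefm had the same difference of 1.74 and an adjusted p of 0.0524, so 0 of the 10 genes were called higher and 8 lower, and over all genes 6203 were higher and 3282 lower, against 6300 and 3403 without it. Counting genes whose groups do not overlap, chosen after seeing the data, gave 8 below and 1 above. Max, not called, changed sign after rescaling to TPM (0.056) and was called under median-ratio scaling (−0.42, adjusted p = 0.00699). Of the differences of Max and the genes named from the lists under all alternatives, 905 kept direction and call, 29 lost the call, 1 gained it and 1 turned; of the counts in the lists 472 stayed within 1.5 times and 38 did not. The causes were not tested. Genes near 1 FPKM rest on fewer fragments than genes of like length and higher FPKM, and no counting error can be given for FPKM.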

Other observations

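The genes next to the 10 on their chromosomes, looked at after the values were seen, varied by locus. Their counts read against all genes tested, of which 23.2% were called lower, 43.0% higher and 66.2% in either direction. Within 100 kb of Elavl3, 12 genes were tested, of which 7 fell and 0 rose; Rab3d lost its call with TPM (adjusted p = 0.0719). Within 100 kb of Prph, 4 were tested and 2 fell, Tuba1c and Spats2, the call of Spats2 being lost with TPM (adjusted p = 0.742). Within 100 kb of Nes, 9 were tested, with 3 lower (Hdgf, Crabp2 and Gpatch4) and Naxe higher, a call lost with median-ratio scaling and with quantile normalization (limma, adjusted p = 0.959 and 0.0628). Around Tubb3 0 of 8 tested genes were called by limma in either direction. Stmn2, Map2 and Sox11 had no tested gene within that distance, and around Pax6 the single one, Elp4, was not called.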
